A study of Mus musculus with 7 samples.

Results

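PP cells and alpha cells of mouse pancreatic islets were compared in summed counts of UMIs, the molecular tags that mark each captured RNA molecule. PP cells were the cells of cluster 6, which the authors' cell table names ppy, and alpha cells were those of clusters 1 and 9, which it names alpha. Together they made up 1524 of the 5907 kept cells. PP cells numbered 283 in library replicate 1 and 41 in replicate 2, and alpha cells numbered 961 and 239. Each library was summed by cell type, so every comparison rests on 2 PP sums and 2 alpha sums (n = 2 libraries).

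Pancreatic islets of 10-week-old female C57BL/6 mice with no further allele or treatment in the labels were dissociated and loaded on a droplet system, and insulin cDNA was removed with Cas9 guides before Nanopore long-read sequencing. Both libraries were made with a modified 5′ kit protocol that added 10 mM dNTP solution at 2 steps and lengthened the extension steps. The labels describe 7 samples in 4 groups, and only the 2 samples of the modified 5′ protocol enter here. Nothing in the labels says whether they came from separate animals or pools. With library as a block, p-values measure only how differences between cell types varied between these libraries, pooled over 6 cell types. That spread may be technical.

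Alpha cells secrete glucagon, which raises blood glucose, and they sense amino acids as well as glucose. PP cells secrete pancreatic polypeptide, a hormone of the neuropeptide Y family that signals to the gut, the vagus nerve and the brain. Both are peptide-secreting endocrine cells, and in the mouse some cells make both hormones.

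The sums held 914467 and 611417 UMIs for PP cells and 1911504 and 2285311 for alpha cells in replicates 1 and 2. A median PP cell held 2796 UMIs and 1095 genes in replicate 1 and 13076 UMIs and 3352 genes in replicate 2. A median alpha cell held 1959 UMIs and 780 genes, and 8917 UMIs and 2708 genes. PP cells were thus the deeper type in both libraries, and replicate 2 was the deeper library for both. No barcode was shared between the PP or alpha cells of the libraries, and 5 were shared over all kept cells. The authors also clustered cells by transcripts: 272 of the 283 and 40 of the 41 PP cells were named PP there too, and 931 of the 961 and 231 of the 239 alpha cells were named alpha.

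The names matched their hormones. Ppy, the gene of pancreatic polypeptide (chr11:102099930-102101319 in mm10, minus strand), stood at 194058 and 130783 CPM (counts per 1000000 UMIs of the sum) in PP cells and at 11902 and 11807 CPM in alpha cells. Gcg, the glucagon gene (chr2:62474530-62483650, minus strand), stood at 19194 and 25344 CPM in PP cells and at 304147 and 166138 CPM in alpha cells. Neither pair of groups overlapped, as in 47.5% of all genes tested. Ppy was higher in PP cells by a log2 fold change of 3.76 ± 0.58 (SE; adjusted p = 0.000142), and Gcg lower, at -3.38 ± 0.66 (adjusted p = 0.00245), both by edgeR's quasi-likelihood test with Benjamini-Hochberg adjustment over 13265 genes. Both genes helped to name the clusters, so these tests are circular. The call for Gcg was lost without the PP sum or without the alpha sum of replicate 1.

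Pyy, the gene of peptide YY, lies next to Ppy on chromosome 11 (chr11:102106676-102107832, minus strand) and belongs to the same hormone family. It stood at 102658 and 89358 CPM in PP cells and at 14721 and 26497 CPM in alpha cells, with a log2 fold change of 2.29 ± 0.51 (adjusted p = 0.00693). Both PP sums lay above both alpha sums, a lack of overlap seen in 47.5% of all genes tested. The call was lost without PP replicate 1 and without either alpha sum. The 250 bases before the start of each of these hormone genes are shown because Ppy and Pyy moved together and Gcg moved the other way. They come from RefSeq (GRCm38.p6), and all 3 genes lie on the minus strand. Capitals mark CAGATG, an E-box of the kind bound by NEUROD1, and TATAAA, each searched on both strands.

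Ppy promoter: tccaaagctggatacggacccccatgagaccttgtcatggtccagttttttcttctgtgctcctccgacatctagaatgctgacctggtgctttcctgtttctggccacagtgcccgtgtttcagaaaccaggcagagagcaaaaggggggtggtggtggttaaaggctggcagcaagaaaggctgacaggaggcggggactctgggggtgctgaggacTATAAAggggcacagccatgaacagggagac
Pyy promoter: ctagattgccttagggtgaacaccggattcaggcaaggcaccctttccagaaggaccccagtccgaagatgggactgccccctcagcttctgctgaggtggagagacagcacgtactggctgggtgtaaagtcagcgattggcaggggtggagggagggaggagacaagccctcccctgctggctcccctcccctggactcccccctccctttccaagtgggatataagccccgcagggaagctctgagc
Gcg promoter: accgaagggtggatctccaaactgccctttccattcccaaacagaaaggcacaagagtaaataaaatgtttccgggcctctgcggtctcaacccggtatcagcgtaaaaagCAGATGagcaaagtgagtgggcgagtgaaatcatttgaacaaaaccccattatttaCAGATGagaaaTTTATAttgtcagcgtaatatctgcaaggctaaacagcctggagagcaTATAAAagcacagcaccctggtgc

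Neither was in the Pyy window. CAGATG was in the Gcg window at 139 and 83 bases before the start. TATAAA was in the Ppy window at 31 and in the Gcg window at 24 bases, and once more in the Gcg window on the other strand at 72. Of 27025 RefSeq promoters cut to the same length, 14.5% held CAGATG and 13.0% TATAAA. These are matches of letters only.

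In single cells the hormones were distributed less evenly than the sums show. A median PP cell gave 22.5% of its UMIs to Ppy in replicate 1 and 13.7% in replicate 2, and 0.0640% and 0.529% to Gcg. A median alpha cell gave 32.3% and 17.3% to Gcg, and 0.0598% and 0.0632% to Ppy. A minority of cells therefore carried most of the other type's hormone. Gcg reached 1% of UMIs in 50 of 283 PP cells of replicate 1 (17.7%, exact Clopper-Pearson 95% interval 13.4 to 22.6%) and in 17 of 41 of replicate 2 (41.5%, 26.3 to 57.9%). Ppy reached 1% in 184 of 961 alpha cells (19.1%, 16.7 to 21.8%) and in 52 of 239 (21.8%, 16.7 to 27.5%).

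Stellate and endothelial cells, which should make neither hormone, served as the level of free RNA per cell, at median depths of 985 and 4434 UMIs. Ppy reached 1% in 1 of 259 of them (0.386%) and in 0 of 53, which allows a share of up to 5.66%. Gcg reached 1% in 4 of 259 (1.54%) and in 1 of 53 (1.89%). The stellate sums still held Gcg at 16908 and 17061 CPM, not far under the PP sums, and endothelial sums at 4535 and 730.3 CPM. The PP and alpha shares lay above these in both libraries. With each cell thinned to 500 UMIs, which left out no PP or alpha cell, Gcg reached 1% in 17.7% and 41.5% of PP cells and Ppy in 19.9% and 21.8% of alpha cells. In the thinned stellate and endothelial cells Gcg reached 1% in 1.54% and 3.77%, and Ppy in 0.386% and 0%. Intervals and limits cover counting error only.

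**Figure D1:**
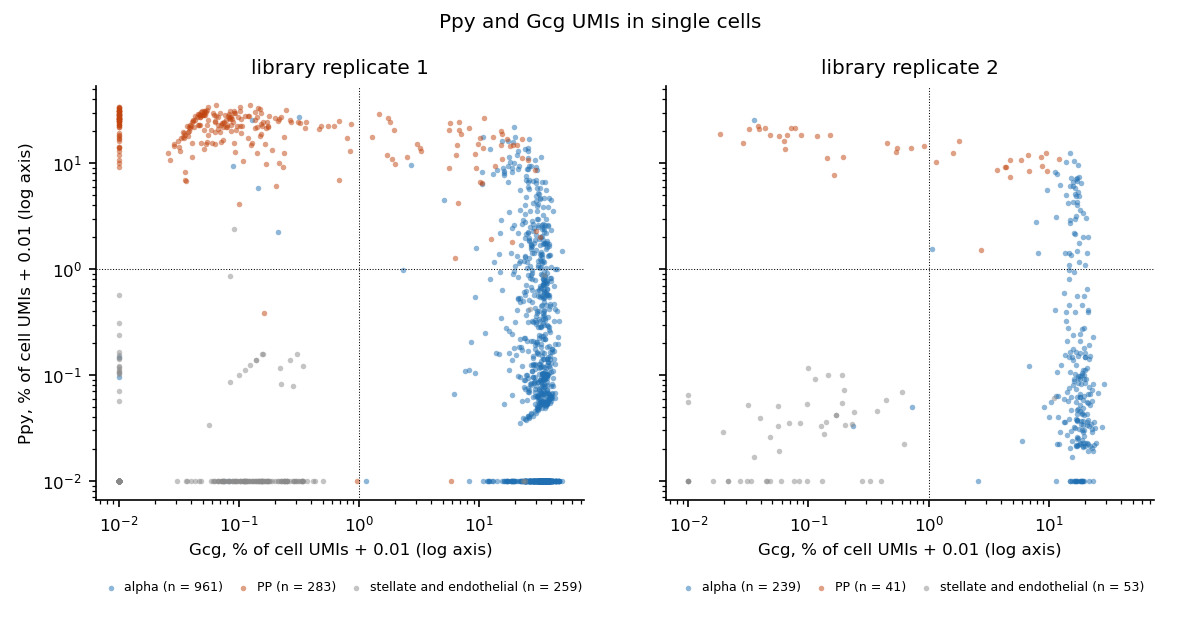
Each point is a cell, with the Gcg share of its UMIs plus 0.01 on the x axis and the Ppy share plus 0.01 on the y axis (percent, log axes), by library. Orange points are PP cells, blue points alpha cells and grey points stellate and endothelial cells, and dotted lines mark 1%. The upper right corner holds cells with at least 1% of both hormones, which were 49 and 17 PP cells and 178 and 51 alpha cells.

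At 1% or more of both hormones stood 17.3% and 41.5% of PP cells and 18.5% and 21.3% of alpha cells, against 0.0876% and 0.690% of beta cells and 5.08% and 12.6% of the cells named delta. The alpha cells with both hormones held a median of 2249 and 10096 UMIs, against 1887 and 8670.5 in the other alpha cells. PP cells with both held 2805 and 13369, against 2796 and 12666. Scrublet, a doublet caller, put 2 of 49 and 1 of 17 of these PP cells, and 4 of 178 and 2 of 51 of these alpha cells, among the 6% of cells with the highest scores, against 10 of 234, 1 of 24, 14 of 783 and 5 of 188 of the others. What doublets add to these shares was not tested further. Both alpha clusters held such cells: 18.1% and 21.0% in cluster 1, and 21.7% and 22.6% in cluster 9. At 10% of both hormones cluster 9 had 0 of 106 and 0 of 53 cells, which allows up to 2.83% and 5.66%, and cluster 1 had 19 of 855 and 3 of 186. Pyy was spread more widely and reached 1% in 36.6% and 57.7% of alpha cells.

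Across genes, 376 were called higher in PP cells (2.83% of 13265 tested) and 288 lower (2.17%), at an adjusted p below 0.05. All 664 called genes (5.01%) had the same sign in each library, and 91 rose and 76 fell by more than 4-fold. CPM did not overlap between the groups in 47.5% of all genes tested, so a lack of overlap in a named gene is common here. Because the authors' clusters were made from the same gene counts, these p-values are circular in part. The counts leaned on every sum: they were 61 higher and 48 lower without PP replicate 1, 121 and 98 without PP replicate 2, 41 and 62 without alpha replicate 1, and 96 and 96 without alpha replicate 2. In each of these fits the lone sum was assumed to vary like the other types. The 663 genes of the 664 that were still tested kept their sign in all 4 of them. These fits reuse the remaining sums, so a kept sign is no independent support.

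PP and alpha cells were the closest pair of endocrine types by this count. Called genes numbered 1007 between PP and delta (7.59%), 1400 between alpha and delta (10.6%), 1831 between beta and delta (13.8%), 2297 between PP and beta (17.3%) and 2522 between alpha and beta cells (19.0%). The pairs share sums, and PP sums were the smallest of the 4 endocrine types. Delta sums pooled all cells named delta, which were mixed. In the highest 5% of these cells Gcg took at least 14.3% and 10.3% of UMIs, and in the lowest 5% Sst took at most 0% and 0.0725%. With the sums of the 4 endocrine types of a library thinned to its PP total, 306 genes were called between PP and alpha cells. Between PP and delta 538 were called, and 521 and 531 for beta and alpha against delta. PP against alpha still gave the lowest count.

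**Figure D2:**
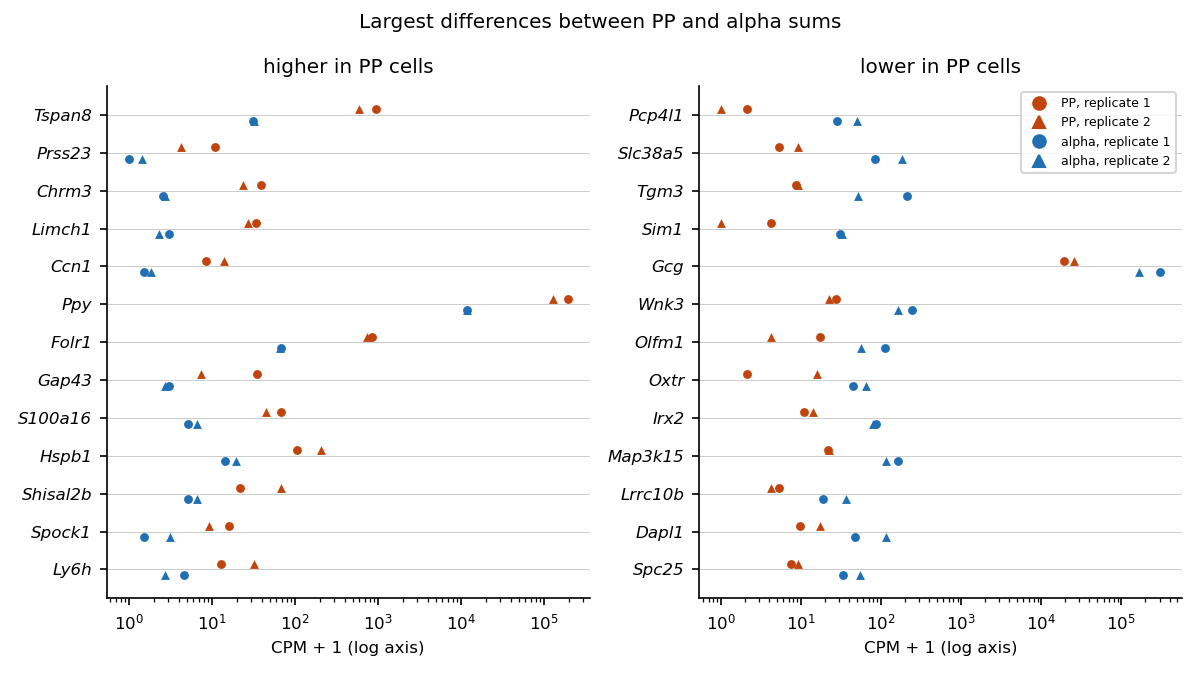
CPM plus 1 (log axis) in each PP sum (orange) and alpha sum (blue) for 13 of the genes that rose most and 13 of those that fell most in PP cells, with circles for replicate 1 and triangles for replicate 2. In all 26 genes both PP points lie on the same side of both alpha points, as in 47.5% of all genes tested.

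Among the 13 plotted rises, that of Tspan8 was the largest. Tspan8, a tetraspanin of the cell membrane, stood at 942 and 599 CPM in PP cells and at 30.9 and 31.1 CPM in alpha cells, a log2 fold change of 4.62 ± 0.33 (adjusted p = 2.91e-10). Folr1, the folate receptor alpha, stood at 855 and 746 CPM against 67.0 and 65.2 CPM, at 3.58 ± 0.26 (adjusted p = 2.91e-10). Both were also found at lower levels in delta cells, Tspan8 at 258 and 278 CPM and Folr1 at 244 and 282 CPM. Chrm3, the muscarinic M3 acetylcholine receptor, stood at 38.3 and 22.9 CPM against 1.57 and 1.75 CPM (log2 fold change 4.12 ± 0.52, adjusted p = 9.91e-06), and beta cells held more of it than PP cells, at 75.3 and 50.8 CPM. Alpha cells were the endocrine type in which Chrm3 was lowest. Limch1, an actin and myosin regulator, was likewise low in alpha cells, with 32.8 and 26.2 CPM in PP cells, 2.09 and 1.31 CPM in alpha cells and 32.9 and 21.2 CPM in beta cells (log2 fold change of PP over alpha 4.04 ± 0.53, adjusted p = 1.63e-05).

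Other genes with large rises had lower levels or were higher in another cell type. Gap43, a growth cone protein, stood at 33.9 and 6.54 CPM in PP cells against 2.09 and 1.75 CPM in alpha cells, and was highest in delta cells at 322 and 301 CPM. Ly6h, a membrane protein of the Ly6 family, stood at 12.03 and 31.1 CPM against 3.66 and 1.75 CPM, and was also highest in delta cells, at 327 and 308 CPM. S100a16, a calcium-binding protein, stood at 66.7 and 44.2 CPM against 4.19 and 5.69 CPM. Hspb1, a small heat shock protein, stood at 106 and 207.7 CPM against 13.6 and 18.8 CPM, with far more in endothelial cells, at 1565 and 2075 CPM. The adjusted p of these 4 genes lay between 2.59e-07 (Hspb1) and 0.00492 (Gap43). Shisal2b and Spock1, a proteoglycan gene, rose by log2 fold changes of 3.02 ± 0.48 and 3.02 ± 0.67. Calls were lost without PP replicate 2 for Shisal2b and Ly6h, without PP replicate 1 for Gap43 and Spock1, without alpha replicate 1 for Gap43 and Spock1, and without alpha replicate 2 for Gap43 and Ly6h. DESeq2 did not call Gap43, whose log2 fold change was as low as 1.52 in the other fits.

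The rises in Prss23 and Ccn1 rested on few UMIs. Prss23, a serine protease gene, had 9 and 2 UMIs in the PP sums and 0 and 1 in the alpha sums, a ratio of 30.3 per UMI of the sum (95% counting interval 4.40 to 1302). Ccn1, which codes for a secreted matrix protein, had 7 and 8 against 1 and 2 UMIs, a ratio of 13.8 (3.89 to 74.1). Both were far higher in stellate and endothelial cells, where Ccn1 reached 2030 CPM and Prss23 653 CPM. What such cells add to the PP sums was not tested. The call for Ccn1 was lost without each of the 4 sums in turn, and that for Prss23 without PP replicate 1 and without either alpha sum.

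Among the genes that were lower in PP cells, several coded for transcription factors. Irx2, an Iroquois homeobox factor, stood at 9.84 and 13.1 CPM in PP cells against 84.2 and 78.8 CPM in alpha cells (log2 fold change -2.87 ± 0.34, adjusted p = 4.45e-06). Its neighbour in the family Irx1 had 1 and 2 UMIs in PP cells and 103 and 151 in alpha cells, a ratio of 30.8 in favour of alpha cells (95% counting interval 10.4 to 150.3, adjusted p = 1.18e-05). Sim1, a basic helix-loop-helix factor, had 3 and 0 against 57 and 73 UMIs, a ratio of 15.8 (5.27 to 77.4), and delta cells held 50.9 and 41.7 CPM of it.

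Of 37 islet transcription factors tested, 5 were lower in PP cells and 0 higher (13.5% called, against 5.01% of all genes), with a median log2 fold change of -0.22 against -0.04 over all genes. DESeq2 called 5 lower and 2 higher. Beside Irx1 and Irx2 they included Rfx6, which endocrine cells need to form, at 35.0 and 27.8 CPM against 106 and 53.4 CPM, and Zbtb20, a zinc finger repressor, at 209 and 154 CPM against 393 and 297 CPM. The call for Zbtb20 was lost without each of the 4 sums and that for Rfx6 without PP replicate 1 or alpha replicate 1. Irx1 and Irx2 are also listed among the alpha markers, so their falls are not independent of the cell names. Pou3f4, a factor of alpha cells, stood at 8.75 and 11.4 CPM against 16.2 and 17.5 CPM and did not pass (adjusted p = 0.453). Pdx1 and Nkx6-1, factors of beta cells, stood at 24.1 and 27.8 against 7.85 and 15.3 CPM and at 50.3 and 47.4 against 30.9 and 26.7 CPM, with adjusted p of 0.103 and 0.119.

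Further large falls were found. Slc38a5, a glutamine transporter, stood at 4.37 and 8.18 CPM in PP cells and at 82.1 and 184 CPM in alpha cells (log2 fold change -4.38 ± 0.37, adjusted p = 8.69e-09). It is also listed among the alpha markers, so its fall is not independent of the cell names. Tgm3, a transglutaminase, stood at 7.65 and 8.18 CPM against 209 and 50.8 CPM (-4.06 ± 0.45). Wnk3, a kinase that acts on chloride cotransporters, stood at 26.2 and 21.3 CPM against 242 and 164 CPM (-3.11 ± 0.28). In all 3 the alpha level exceeded that of beta and delta cells too, where the highest sum was 42.6 CPM for Slc38a5, 17.4 CPM for Tgm3 and 30.5 CPM for Wnk3. Pcp4l1 had 1 and 0 UMIs in PP cells against 52 and 112 in alpha cells, a ratio of 59.6 (10.6 to 2369). Olfm1, Map3k15, Lrrc10b, Dapl1 and Spc25, a kinetochore gene, fell by log2 fold changes between -3.02 ± 0.40 (Olfm1) and -2.57 ± 0.42 (Spc25). The call for Lrrc10b was lost without PP replicate 2.

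Each of these calls was looked up in 18 fits with other settings. The calls for Tspan8, Chrm3, Limch1, Ppy, Folr1, S100a16 and Hspb1 held in all 18, and so did those for Pcp4l1, Slc38a5, Tgm3, Sim1, Wnk3, Irx1, Irx2, Map3k15, Spc25 and Slc30a8. They are among 18 of the 59 named genes that were called. All 59 kept their sign in each of the 18 fits that tested them.

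**Figure D3:**
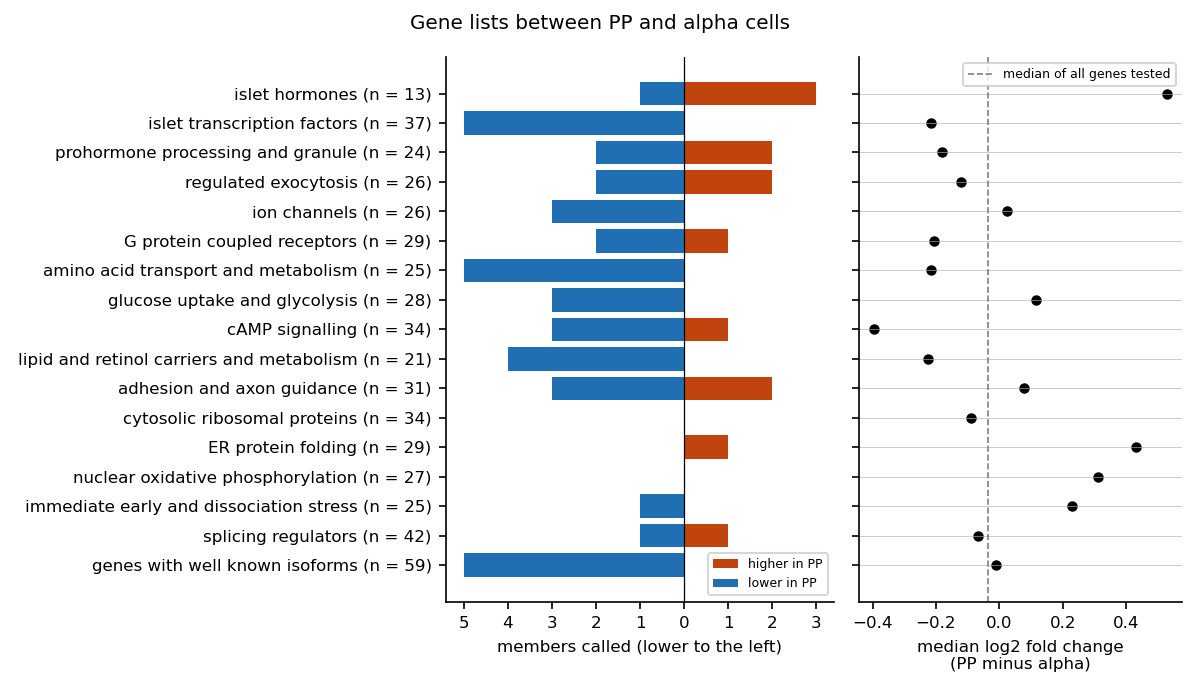
Left, the number of members of each gene list called higher (orange, to the right) or lower (blue, to the left) in PP cells, with the number tested in brackets. Right, the median log2 fold change of each list (points) beside that of all genes tested (dashed line, -0.04). Transcription factors, amino acid genes and genes with well known isoforms show 5 lower members each, and ribosomal and oxidative phosphorylation genes show none in either direction.

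Of 13 hormone genes tested, 3 were higher in PP cells and 1 lower (30.8% called, against 5.01% of all genes). Beside Ppy, Pyy and Gcg the call was for Sst, the somatostatin gene, at 3444 and 3862 CPM in PP cells and 716 and 286 CPM in alpha cells (log2 fold change 3.02 ± 0.58, adjusted p = 0.00180). Delta cells held 93697 and 68216 CPM, and the call was lost without either alpha sum. A median PP cell held no Sst UMI in replicate 1 and 0.0194% in replicate 2, and the highest 5% of cells started at 1.27% and 0.238%. The summed level of 9 delta markers was 4257 and 4970 CPM in PP cells and 2115 and 2019 CPM in alpha cells, and 1 of the 8 tested, Sst itself, was called. These sums include Sst, which made up most of them in PP cells and the smaller part in alpha cells. The other delta markers together were lower in PP cells than in alpha cells in both libraries. Hhex, the factor that delta cells need, stood at 4.37 and 14.7 CPM in PP cells, 1.05 and 1.31 CPM in alpha cells and 256 CPM in delta cells of replicate 1, and Ptprz1 was at 0 in both PP sums. The part of delta cells in the PP sums was not tested.

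Of 24 genes of prohormone processing and granules, 2 were higher and 2 lower (16.7% called, against 5.01% of all genes). Slc30a8, the zinc transporter of secretory granules, stood at 118 and 168 CPM in PP cells against 783 and 730 CPM in alpha cells (log2 fold change -2.42 ± 0.29, adjusted p = 2.87e-06). It is listed among the beta markers, and of 13 of those it was the only one called. Vgf, a granin-like gene, had 3 and 0 UMIs against 48 and 73, a ratio of 14.7 in favour of alpha cells (4.90 to 72.1), and DESeq2 did not call it. Scg2, a granin, stood at 2779 and 2113 CPM in PP cells against 924 and 1028 CPM (1.28 ± 0.33, adjusted p = 0.0208), and Atp6ap1, a proton pump subunit, at 238 and 265 against 106 and 174 CPM. The calls for Scg2 and Atp6ap1 were lost without each of the 4 sums. The processing enzymes did not pass: Pcsk2, which frees glucagon, stood at 2739 and 2416 CPM against 4843 and 4008 CPM (-0.80 ± 0.34, adjusted p = 0.179), and Pcsk1 at 43.7 and 27.8 against 6.28 and 21.4 CPM (adjusted p = 0.0938).

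Among 26 genes of regulated exocytosis, 2 were higher and 2 lower (15.4% called, against 5.01% of all genes), and the small GTPases split. Rab3b rose to 133 and 123 CPM from 40.3 and 50.8 CPM in alpha cells (log2 fold change 1.46 ± 0.28) and Rab3a to 155 and 182 from 73.8 and 112 CPM (0.85 ± 0.23), both of which tether granules. Rab27a, which docks them, fell to 45.9 and 27.8 from 77.4 and 68.7 CPM, and so did Syt7, a calcium sensor of fusion, to 42.6 and 54.0 from 95.2 and 96.7 CPM. Their adjusted p lay between 0.00223 (Rab3b) and 0.0318 (Rab27a). The calls for Syt7, Rab27a and Rab3a were lost without each of the 4 sums, and that for Rab3b without PP replicate 1 or alpha replicate 1.

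Of 26 ion channels, 3 were lower and 0 higher (11.5% called, against 5.01% of all genes): Kcnk3, a background potassium channel (52.5 and 26.2 against 85.3 and 75.7 CPM), Cacna1d, an L-type calcium channel (33.9 and 29.4 against 66.4 and 59.1 CPM), and Kcnma1, the large-conductance potassium channel (27.3 and 3.27 against 48.7 and 33.3 CPM). The calls for Kcnk3 and Cacna1d were lost without each of the 4 sums, and that for Kcnma1 without PP replicate 2 or either alpha sum and in DESeq2, which called 1 channel higher and 2 lower. Of 29 G protein-coupled receptors (10.3% called), Chrm3 was higher and 2 receptors of the neurohypophysial hormones were lower. Oxtr, the oxytocin receptor, stood at 1.09 and 14.7 CPM in PP cells against 43.9 and 63.0 CPM (log2 fold change -2.98 ± 0.47, adjusted p = 0.000198). Avpr1b, the vasopressin 1b receptor, stood at 6.56 and 3.27 CPM against 27.7 and 23.6 CPM (-2.31 ± 0.56, adjusted p = 0.0148), and its call was lost without each of the 4 sums and in DESeq2.

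Of 25 amino acid genes tested, 5 were lower in PP cells (2.17% of all genes were) and 0 higher, and the other 20 did not pass, with a median log2 fold change of -0.22. Beside Slc38a5 they included Slc7a2, which carries arginine and lysine, at 94.0 and 119 CPM in PP cells against 620 and 373 CPM, and Slc7a8, which carries large neutral amino acids, at 26.2 and 11.4 against 74.3 and 80.1 CPM. Slc38a5 and Slc7a2 are also listed among the alpha markers, so their falls are not independent of the cell names. Slc38a4, a transporter of small neutral amino acids, stood at 38.3 and 19.6 against 107 and 94.1 CPM. Their log2 fold changes were -2.22 ± 0.30 (Slc7a2), -1.97 ± 0.33 (Slc7a8) and -1.79 ± 0.30 (Slc38a4), with adjusted p from 2.55e-05 to 0.000468. Slc3a2, the partner chain of several such carriers, stood at 154 and 147 against 245 and 259 CPM and did not pass (adjusted p = 0.0844).

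Of 28 genes of glucose uptake and glycolysis 3 were lower and 0 higher (10.7% called, against 5.01% of all genes), and DESeq2 called 3 lower and 1 higher. The 3 were Pdk4, a kinase that switches off pyruvate dehydrogenase (24.1 and 21.3 against 109 and 76.1 CPM, log2 fold change -2.04 ± 0.33), Gpd2, the mitochondrial glycerol phosphate dehydrogenase (19.7 and 16.4 against 42.9 and 50.3 CPM), and Pdha1, a subunit of pyruvate dehydrogenase (32.8 and 32.7 against 60.2 and 64.8 CPM). The median of this list was 0.12. Of 21 lipid and retinol genes 4 were lower and 0 higher (19.0% called), and in DESeq2 1 was lower. Ttr, on this list, is also listed among the alpha markers, so its fall is not independent of the cell names. Ttr, the carrier of thyroxine and retinol-binding protein, stood at 5411 and 12998 CPM in PP cells against 38452 and 56144 CPM (-2.49 ± 0.43, adjusted p = 0.000639), and stellate cells held 2443 and 4908 CPM. Lpl, the lipoprotein lipase, stood at 130 and 147 against 347 and 350 CPM. Cd36, a fatty acid carrier, had 3.28 and 3.27 against 20.4 and 14.4 CPM, and Fasn, the fatty acid synthase, 10.9 and 16.4 against 27.2 and 35.9 CPM. Calls for Gpd2, Pdha1, Cd36 and Fasn were lost without each of the 4 sums, those for Ttr and Lpl without PP replicate 1, that for Pdk4 without alpha replicate 1, and that for Lpl also without either alpha sum. Lpl, Cd36 and Fasn were not called by DESeq2.

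Of 34 genes of cAMP signalling, 3 were lower and 1 higher (11.8% called, against 5.01% of all genes). The list's median of -0.40 was the lowest of the 17 lists. Gnas, the gene of the stimulatory G protein alpha subunit that couples receptors to adenylyl cyclase, stood at 1084 and 1178 CPM in PP cells and at 2840 and 2691 CPM in alpha cells (log2 fold change -1.30 ± 0.31, adjusted p = 0.0139). This count takes in all Gnas transcripts. Gnas-217, Gnas-219 and Gnas-221 start at exon 1A and are annotated as processed transcripts, not as protein coding. Together they took 29.7% and 44.1% of Gnas transcript UMIs in PP cells and 53.8% and 61.8% in alpha cells. These shares leave out Gnas-202, a protein-coding transcript whose annotated start (chr2:174327768) lies in the same region. Gnas-202 went the other way, at 22.7% and 9.93% in PP cells against 13.1% and 5.73% in alpha cells. It did not pass by itself (adjusted p = 0.494 by edgeR over all transcripts). Whether the protein-coding transcripts alone differed in level was not tested. Gnao1, which codes for another G protein alpha subunit, stood at 113 and 124 against 243 and 223 CPM, and Pde10a, a phosphodiesterase, at 19.7 and 37.6 against 54.9 and 98.5 CPM. Rgs2, a brake on G protein signalling, rose to 124 and 68.7 from 48.7 and 35.4 CPM. The calls for Gnas, Gnao1 and Rgs2 were lost without each of the 4 sums, that for Rgs2 also in DESeq2, and that for Pde10a without PP replicate 1. Of 31 genes of adhesion and axon guidance 16.1% were called, and 2 rose (Tspan8 and Gap43). The 3 that fell were Cadm1, an adhesion molecule, to 9.84 and 26.2 from 57.5 and 63.9 CPM, Dpysl2 to 23.0 and 16.4 from 54.4 and 52.5 CPM, and Basp1 to 21.9 and 32.7 from 83.7 and 63.0 CPM. All 3 lost their calls without PP replicate 1, Cadm1 and Basp1 also without alpha replicate 1, and Dpysl2 also without PP replicate 2 or alpha replicate 2. DESeq2 did not call Gap43 or Basp1.

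Of 29 genes of protein folding in the endoplasmic reticulum 1 rose, Dnajb9, a cochaperone of the unfolded protein response, at 238 and 311 against 92.1 and 141 CPM (log2 fold change 1.23 ± 0.28, adjusted p = 0.00757). Of this list 3.45% was called, against 5.01% of all genes. The list's median log2 fold change was 0.43, against -0.04 over all genes. At an unadjusted p below 0.05, 11 members were higher and 1 lower, DESeq2 called 7 higher, and the fit without TMM scaling called 2. Dnajc3 and P4hb fell just short, at adjusted p of 0.0503 and 0.0551. Of 34 cytosolic ribosomal protein genes and 27 nuclear genes of oxidative phosphorylation 0 were called by edgeR, with medians of -0.09 and 0.31. At an unadjusted p below 0.05, 1 ribosomal gene and 5 oxidative phosphorylation genes were higher and 0 lower, while DESeq2 called 3 ribosomal genes lower and 1 oxidative phosphorylation gene higher. Of 25 immediate early and stress genes 1 fell (4.0% called), Socs3, a brake on cytokine signalling, at 7.65 and 24.5 against 31.4 and 72.6 CPM. Fos stood at 1228 and 3781 against 1286 and 2492 CPM. Of 42 splicing regulators Snrpn rose (177 and 157 against 77.4 and 103 CPM) and Nova2, a neuronal regulator, fell (9.84 and 6.54 against 26.2 and 20.1 CPM). With 4.76% of the splicing regulators called, neither this list nor the stress list exceeded the 5.01% of all genes. Dnajb9, Snrpn and Nova2 lost their calls without each of the 4 sums, Nova2 also in DESeq2, and Socs3 without PP replicate 2 or alpha replicate 1. Mitochondrial UMIs took a median of 0.541% and 1.17% in PP cells and 0.742% and 1.47% in alpha cells.

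Of the markers of PP cells listed beside Ppy and Pyy, Vsig1, a membrane protein, had 14 and 6 UMIs in PP cells and 0 and 2 in alpha cells, a ratio of 27.5 (95% counting interval 6.68 to 242.7, adjusted p = 0.0182), and DESeq2 did not call it. The call for Vsig1 was lost without PP replicate 2 or either alpha sum. Cd59a, a complement inhibitor, stood at 52.5 and 54.0 against 18.8 and 23.2 CPM and fell just short (log2 fold change 1.35 ± 0.41, adjusted p = 0.0510). Aqp3 had 0 UMIs in all 12 sums, Abcc9 had 0 in PP cells, and Sertm1, below the filter, had 6 and 4 UMIs in PP cells and 12 and 27 in alpha cells. Of 12 alpha markers, 11 had rows under these symbols, and 8 of the 11 were lower (2.17% of all genes were), which is not independent of the cell names. The others included Pou3f4 and Gc, the vitamin D binding protein gene, at 535 and 402 CPM in PP cells against 322 and 360 CPM (0.43 ± 0.24, adjusted p = 0.329). Loxl2, a lysyl oxidase, stood at 43.7 and 39.3 against 91.0 and 79.6 CPM, and lost its call without each of the 4 sums and in DESeq2.

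Markers of other cell types were looked up in the same sums. Over all genes tested, 5.01% were called. Spp1, the osteopontin gene and a duct marker, stood at 543 and 317 CPM in PP cells and at 24.1 and 14.4 CPM in alpha cells (log2 fold change 4.48 ± 0.48, adjusted p = 4.72e-07). The defining duct genes Sox9 and Cftr had 0 UMIs in PP cells and Krt19 at most 1.09 CPM, while Krt7 stood at 378 and 304 against 154 and 182 CPM (1.03 ± 0.30, adjusted p = 0.0447). These were the 2 of 7 tested duct markers that were called, and the summed duct list was 959 and 638 CPM in PP cells and 200.9 and 218 CPM in alpha cells. Of 6 acinar markers tested 1 was called, Cela1, an elastase, at 28.4 and 40.9 against 0 and 9.63 CPM. Of the 12 acinar markers listed, 5 had 0 UMIs in both PP sums, among them Cpa1, Cpb1, Pnlip and Clps. The summed acinar list was 28.4 and 63.8 CPM in PP cells and 4.71 and 69.1 CPM in alpha cells. The 10 stellate markers summed to 4.37 and 4.91 CPM in PP cells and 10.99 and 15.3 CPM in alpha cells, and the 9 endothelial markers to 26.2 and 16.4 against 26.7 and 9.63 CPM, with 0 called in either list. Spp1 kept its call in all 18 other fits, Krt7 lost it without each of the 4 sums and Cela1 without alpha replicate 1. These 3 genes are named because of their values.

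Transcript usage, which is the share of a gene's UMIs that each of its transcripts takes, was tested in 3470 genes with at least 2 usable transcripts. The clusters from gene counts were not built on these shares. At an adjusted Simes p below 0.05, 4 genes were called (0.115%): Gnas, Tmed10, Tram1 and Tecr. At an unadjusted p below 0.05 there were 195. Leaving out any one of the PP or alpha sums left 0 calls, so each call needed all 4 sums. The sums of the called genes held between 119 and 1413 transcript UMIs.

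Gnas, an imprinted locus, makes transcripts that keep or skip exon 3, which gives the long and short forms of the protein. Gnas-207, which skips exon 3, took 6.51% and 4.41% of Gnas UMIs in PP cells (25 of 384 and 12 of 272) and 1.57% and 1.13% in alpha cells (18 of 1143 and 16 of 1413). Both PP shares lay above both alpha shares, a lack of overlap seen in 40.4% of 8597 tested transcripts with a share in each sum, and beta cells stood higher still at 22.8% and 25.0%. Gnas-207 had the lowest p. The largest share difference was that of Gnas-221, a processed transcript from exon 1A, at 14.8% and 21.3% in PP cells against 21.7% and 31.0% in alpha cells. Gnas-221 did not pass by itself (adjusted p = 0.9995 by edgeR over all transcripts). For Gnas-207 the mean difference was 4.11 ± 1.17 percentage points (SD, n = 2), and the adjusted Simes p of Gnas was 0.0285. The sequences show what sets the transcripts apart, in mm10 on the plus strand of chromosome 2: capitals mark exon 3 in Gnas-208 (chr2:174336747-174336791) and, in Gnas-207, the bases added at the junction that skips it (chr2:174341650-174341652).

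Gnas-208: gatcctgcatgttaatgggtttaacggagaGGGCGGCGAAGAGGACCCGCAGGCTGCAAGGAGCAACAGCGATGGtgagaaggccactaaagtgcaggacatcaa
Gnas-207: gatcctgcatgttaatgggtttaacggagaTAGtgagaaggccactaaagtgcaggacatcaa

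Among the transcripts Gnas-206, Gnas-207 and Gnas-208, which share the main start region, those without exon 3 took 33.1% and 33.3% in PP cells (43 and 20 UMIs) and 13.4% and 17.98% in alpha cells (29 and 32 UMIs). Delta cells stood with PP cells, at 34.6% and 31.1%, and beta cells at 50.6% in both libraries. The PP and alpha groups did not overlap. This grouping was chosen after the values were seen and has no test of its own.

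**Figure D4:**
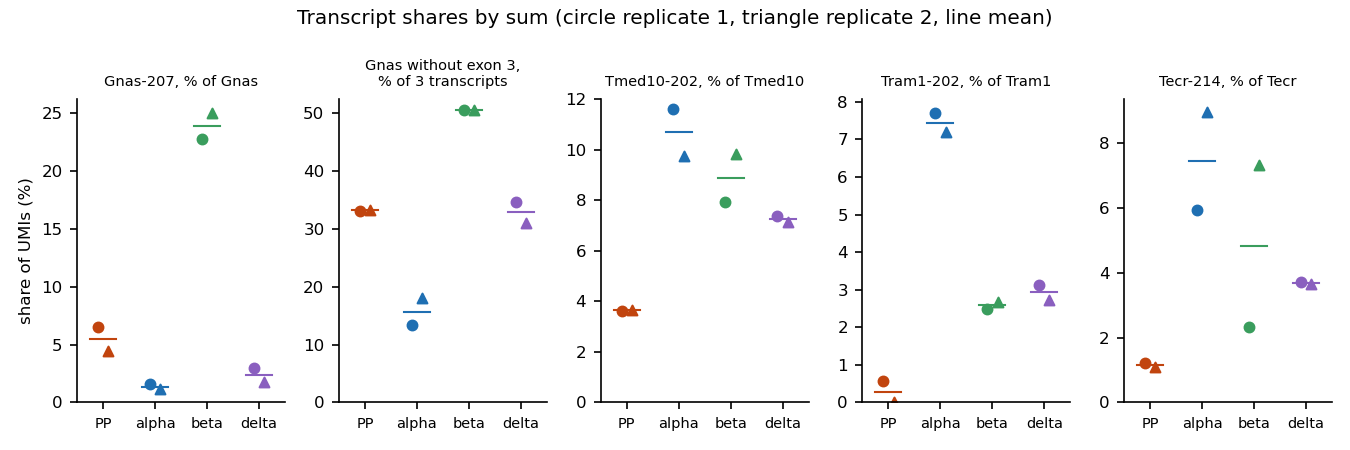
Share of UMIs (percent) of each transcript within its gene, or of Gnas transcripts without exon 3 among 3 Gnas transcripts, in PP, alpha, beta and delta sums. Circles are replicate 1, triangles replicate 2 and lines the mean of both. PP and alpha points are apart in every panel, with PP above alpha for Gnas and below it for Tmed10-202, Tram1-202 and Tecr-214.

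In the other 3 genes the transcript with the lowest p was lower in PP cells. Tmed10, a cargo receptor between the endoplasmic reticulum and the Golgi, had its retained-intron transcript Tmed10-202 at 3.64% and 3.66% in PP cells against 11.6% and 9.77% in alpha cells (mean difference -7.05 ± 1.32 percentage points). Tram1, which helps proteins into the endoplasmic reticulum, had Tram1-202, also annotated as a retained intron, at 0.565% and 0% against 7.69% and 7.19%, from 1 and 0 UMIs in PP cells and 15 and 22 in alpha cells. Tecr, an enzyme of very long fatty acid synthesis, had Tecr-214 at 1.22% and 1.09% against 5.94% and 8.96% (-6.30 ± 2.23 percentage points), and its annotation has 7 exons where Tecr-201 has 13. By the Simes test of edgeR, adjusted p was 0.0285 for Tmed10 and Tram1 and 0.0393 for Tecr. The groups did not overlap in any of them, as in 40.4% of tested transcripts. The main transcripts took the rest or most of it, Tmed10-201 at 95.1% and 94.1% in PP cells against 84.8% and 87.5% in alpha cells, and Tram1-201 at 99.4% and 100% in PP cells against 92.3% and 92.8% in alpha cells. The junctions below show the intron bases that mark Tram1-202 (chr1:13576308-13576367, minus strand, the first 60 of 224 kept) and Tmed10-202 (chr12:85350877-85350920, minus strand, the 44 it starts with), in capitals beside exon bases in lower case.

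Tram1-202: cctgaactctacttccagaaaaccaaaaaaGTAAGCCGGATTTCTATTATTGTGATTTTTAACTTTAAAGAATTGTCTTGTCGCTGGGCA
Tmed10-202: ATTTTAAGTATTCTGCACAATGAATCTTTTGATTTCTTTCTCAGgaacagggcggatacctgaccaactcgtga

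Retained-intron transcripts as a class took 3.11% and 2.46% of UMIs outside the hormone genes in PP cells and 4.44% and 2.74% in alpha cells, so the groups overlapped. Within each library PP cells stood lower. Of 2213 tested retained-intron transcripts, 46.5% took a lower share of their gene in PP cells in both libraries and 12.4% a higher one, so a lower share of such a transcript was common. PP sums held fewer UMIs than alpha sums, and the part of this in these shares was not tested. The next genes by p did not pass: Arf4, with its retained-intron transcript Arf4-207 at 10.1% and 5.31% in PP cells against 27.4% and 16.5% in alpha cells (adjusted p = 0.120), and Etv1, an ETS transcription factor, with Etv1-202 at 23.8% and 25.9% against 7.19% and 8.45% (adjusted p = 0.162). Of 36 genes with well known isoforms that could be tested, 1 was called, Gnas, beside 4 of all 3470 genes tested (0.115%).

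**Figure D5:**
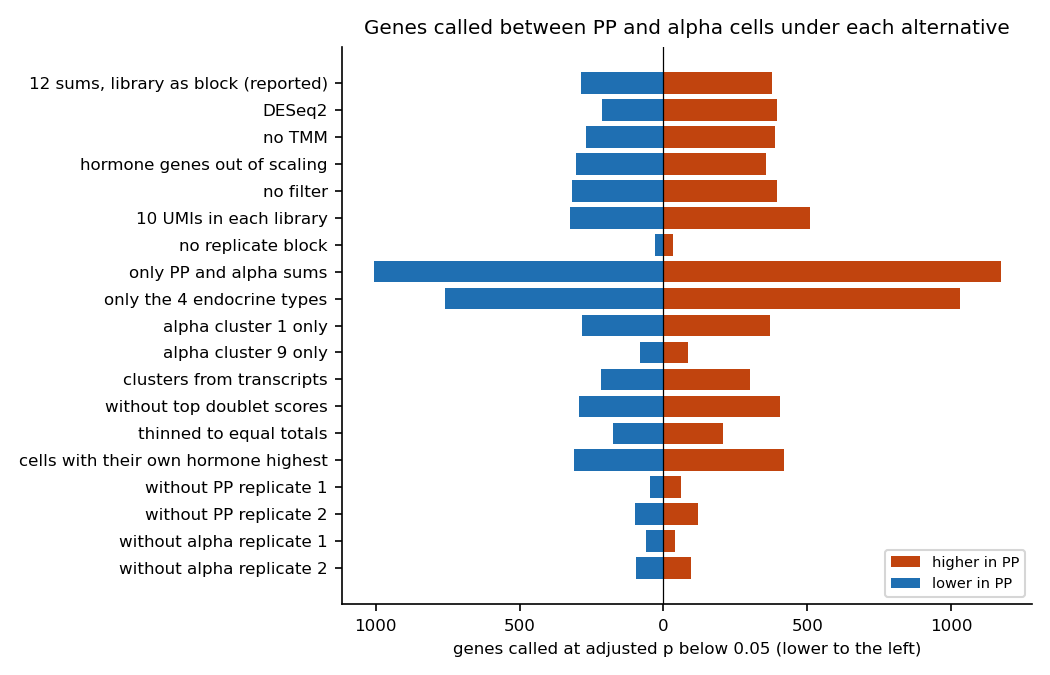
Genes called higher (orange, to the right) or lower (blue, to the left) in PP than alpha cells at an adjusted p below 0.05, for the reported fit at the top and each alternative below it. The bars run from 32 and 29 genes without the replicate block to 1172 and 1007 with only the 4 PP and alpha sums.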

How the data were processed

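The authors deposited raw UMI counts per cell for genes and for transcripts, and a table of kept cells with cluster names, which they made with Seurat on mm10 per the submitters' processing notes. The aligner, the counter and any use of strand were not given in the sources used here. Kept cells numbered 4814 and 1093, and their totals equalled the authors'. Each library gave 1 sum for each of 6 cell types (20 cells or more in both libraries, 12 sums in all), which were fitted in edgeR 4.0.16 (TMM, filterByExpr, quasi-likelihood, cell type plus library, 5 residual degrees of freedom), with PP minus alpha as the contrast and Benjamini-Hochberg adjustment at 0.05. SE is the log2 fold change over the square root of F.

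Both types came from each library, so library entered as a block. Differences between replicates in PP and alpha sums correlated at 0.24 across genes. Without this replicate block 32 genes were higher and 29 lower. Transcripts were joined through GENCODE M21 (99.9% of UMIs) and tested with diffSpliceDGE, for transcripts with 10 UMIs and 5% of the gene in either type. Scrublet (scanpy 1.11.5, expected rate 6%) gave doublet scores. It called 6 cells (0.125%) and 13 (1.19%), so the 6% highest scores served as an alternative. Other alternatives were DESeq2 1.42.0, limma 3.58.1 (diffSplice), other scaling, filters, cells and sums.

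The fits were tested on simulated data. Named genes were the 14 with the largest rise and fall among called genes above median expression with 1 sign in both libraries (without markers of other cells, predicted and mitochondrial genes), up to 3 per list by adjusted p, and PP and alpha markers. Further list members called in a list of 5 or fewer were named after their values were seen. The members, the 17 lists and the tests were chosen with earlier results of these data known. A ratio with 1 to 3 UMIs on the lower side has a 95% counting interval. A few of these genes are not reported here.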

Additional observations from a re-analysis of the deposited data

How the results depend on the processing

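Fitting without the replicate block gave 32 genes higher and 29 lower in PP cells, 3 and 6 list members in place of 13 and 37, and 0 genes in transcript usage. Only the PP and alpha sums gave 1172 and 1007 genes and 7 in transcript usage, on 1 residual degree of freedom. Only the 4 endocrine types, chosen after seeing the data, gave 1030 and 759, and 2. Alpha cluster 9 alone gave 86 and 83, and sums thinned to equal totals gave 206 and 177. DESeq2 called 24 list members higher. By list it called 7 endoplasmic reticulum folding genes higher in place of 1, 1 lipid gene lower in place of 4, 3 ribosomal genes lower and 2 transcription factors higher in place of 0, with other lists moving by 1, and without TMM scaling 2 folding genes and 2 splicing regulators were higher in place of 1. Leaving out 1 PP or alpha sum gave 41 to 121 genes higher, 48 to 98 lower and 0 to 0 in transcript usage. In transcript usage limma gave 1 gene, 30 UMIs and 10% gave 1, and clusters from transcripts gave 0 (lowest adjusted p 0.0538). Thinning to the smallest endocrine sum gave 306 genes for PP and alpha, 1360 for PP and beta, 538 for PP and delta, 1109 for alpha and beta, 531 for alpha and delta, and 521 for beta and delta cells. In the other settings the counts over all genes stayed within 1.5 times. No named call reversed, and a fit on 1 whole library has no residual degrees of freedom and gave values only. Depth limits genes of few UMIs: the smallest PP or alpha sum held 611417 UMIs from 41 cells.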
